A study of Homo sapiens with 8 samples.

Results

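The domain described here is a stretch of human chromosome 12 that holds NOS1, KSR2 and SRRM4, and along which the Polycomb mark H3K27me3 was higher in cells without RING1A and RING1B. Its members are the regions of the authors' table that overlapped the interval from 117.62 to 120.11 Mb (hg19), which gave 39 of 34703 regions. The interval had been drawn around regions with a gain of H3K27me3 in these same libraries, so the H3K27me3 values and calls of the members are given as a description and support nothing. They were set against the 31 regions within 1 Mb outside the interval, 17 on the left and 14 on the right, here called the flanks.

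The study immunoprecipitated chromatin from HAP1, an established human line with a nearly haploid genome that descends from the leukaemia line KBM-7, and sequenced the recovered DNA (ChIP-seq). The RING1A/B double-knockout cells (RING1A/B-DKO) were made by CRISPR editing of RING1B in HAP1 cells that already lacked RING1A, and the other genotype was unedited HAP1 (WT). H2AK119ub and H3K27me3 were each profiled in 2 RING1A/B-DKO and 2 WT libraries, 8 libraries in 4 groups. The libraries of a group came from biological duplicates of 1 culture condition, and the sources used here do not state the number of knockout clones. The p-values therefore cover only the spread among these cultures. For H3K27me3 the labels list another antibody than the protocol does, and the fly chromatin that the protocol adds as a reference is described for another cell line.

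H2AK119ub is a single ubiquitin on histone H2A, attached by RING1A or RING1B, the catalytic subunits of Polycomb repressive complex 1. H3K27me3 is the trimethylation of histone H3 by EZH1 or EZH2 in Polycomb repressive complex 2. Both marks are known from silent developmental genes, and some forms of complex 2 bind nucleosomes that carry H2AK119ub. NOS1 encodes the neuronal nitric oxide synthase, KSR2 a scaffold of the RAF, MEK and ERK kinase cascade that is expressed mainly in brain, and SRRM4 a splicing factor of neurons that promotes the inclusion of neural microexons.

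The 300 bases around the RefSeq start of each gene, from 250 before to 50 after it, are shown because the domain is named after these genes and because Polycomb complexes in mammals are known to be recruited to CpG islands. All 3 genes matched the RefSeq table of GRCh38.p14, and positions in that build were not converted to hg19. Bases are in lower case, 5′ to 3′ on the gene's own strand, and each CG dinucleotide is in capitals.
NOS1, chr12:117309361-117309660, minus strand: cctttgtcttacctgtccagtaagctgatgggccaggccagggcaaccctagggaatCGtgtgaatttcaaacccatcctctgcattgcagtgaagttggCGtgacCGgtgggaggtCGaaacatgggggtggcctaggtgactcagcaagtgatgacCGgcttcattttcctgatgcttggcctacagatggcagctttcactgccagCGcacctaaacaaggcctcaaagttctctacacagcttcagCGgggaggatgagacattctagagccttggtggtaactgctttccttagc
KSR2, chr12:117968941-117969240, minus strand: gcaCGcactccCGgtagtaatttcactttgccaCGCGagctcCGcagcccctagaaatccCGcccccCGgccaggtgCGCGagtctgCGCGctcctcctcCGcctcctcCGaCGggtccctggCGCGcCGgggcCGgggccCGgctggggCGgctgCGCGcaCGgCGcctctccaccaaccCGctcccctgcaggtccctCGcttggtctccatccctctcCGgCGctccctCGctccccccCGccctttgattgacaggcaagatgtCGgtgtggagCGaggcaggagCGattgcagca
SRRM4, chr12:118981291-118981590, plus strand: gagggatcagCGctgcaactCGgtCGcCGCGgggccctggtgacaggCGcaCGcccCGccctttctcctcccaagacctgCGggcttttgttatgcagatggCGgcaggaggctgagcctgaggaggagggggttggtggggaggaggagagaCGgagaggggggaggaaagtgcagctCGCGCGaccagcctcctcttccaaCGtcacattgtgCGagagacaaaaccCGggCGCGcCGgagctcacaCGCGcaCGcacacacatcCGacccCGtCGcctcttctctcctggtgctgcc
The motif CG, which reads the same on both strands, occurred 33 times in the KSR2 promoter, 26 times in that of SRRM4 and 7 times in that of NOS1. Among all 35116 promoters of this length in the table, 96% held at least 1 CG and the median was 14. As many CGs as in KSR2 or more were found in 17.2% of promoters, against 30.1% for SRRM4 and 63.2% for NOS1. The GC content was 71.3% in KSR2, 66.7% in SRRM4 and 53.3% in NOS1. The NOS1 entry starts inside the span of the gene, so it is a start within the gene and not its outermost one. These counts describe the letters of the windows only.

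The domain was built of wide regions with short gaps, and it fell into 2 blocks. The first region began at position 117628401 and the last ended at 120104800, a span of 2476.4 kb of which 1703.6 kb, or 68.8%, lay inside regions. The median width of a member was 26.2 kb, against 4.6 kb in the flanks and 6.0 kb over the whole table, and 36 of the 39 members were wider than the median of the table. The 12 members of at least 50 kb held 69.1% of the covered length. Members on the 200-base grid of the table were separated by a median of 8.3 kb. One gap of 408.6 kb, from 118452801 to 118861400, was far longer than the next, of 30.2 kb. It divided the domain into 12 regions over 824.4 kb with NOS1 and KSR2, and 27 regions over 1243.4 kb with SRRM4. The nearest region outside lay 81.6 kb away on the left and 212.0 kb away on the right, and the flanks held 245.8 kb of regions in all.

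Each region that overlapped the approximate limits of a gene in the rule was counted whole, for the gene it overlapped most. By this count NOS1 had 2 regions over 232.8 kb, KSR2 8 regions over 482.6 kb and SRRM4 4 regions over 197.8 kb. Regions could thus reach past the limits of a gene, which for SRRM4 span 180 kb. All values per gene below include those parts. A further 15 regions over 377.4 kb lay between KSR2 and SRRM4, 9 regions over 407.6 kb lay beyond SRRM4, and 1 region of 5.4 kb lay before NOS1. The files do not pair regions with genes. In the RefSeq gene order, RFC5, WSB2, VSIG10, PEBP1, TAOK3 and SUDS3 stand between KSR2 and SRRM4, and HSPB8 and CCDC60 follow SRRM4, but which of them a region covered was not determined. The start of KSR2 near 118.41 Mb fell inside the region 118394601 to 118434200, and that of SRRM4 near 119.42 Mb fell inside 119407001 to 119477000. The outer start of NOS1 near 117.89 Mb fell at the left edge of a region and could not be placed within 5 kb.

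Summed over the domain and divided by the covered length, H3K27me3 stood at 10.1 and 8.79 normalized counts per kb in the 2 RING1A/B-DKO libraries, against 3.32 and 3.50 in the WT libraries. The means were 9.44 ± 0.92 in RING1A/B-DKO and 3.41 ± 0.12 in WT (SD, n = 2 each), a ratio of 2.77 that ran from 2.51 to 3.04 over the pairs of libraries. Every RING1A/B-DKO library was well above every WT library. As a share of all normalized counts of its library, the domain held 0.454% and 0.464% in RING1A/B-DKO and 0.237% and 0.243% in WT, a measure that does not depend on how libraries were scaled to each other. Both RING1A/B-DKO shares were above both WT shares. In bulk cultures, more cells with the mark and more mark per cell cannot be told apart.

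**Figure D1:**
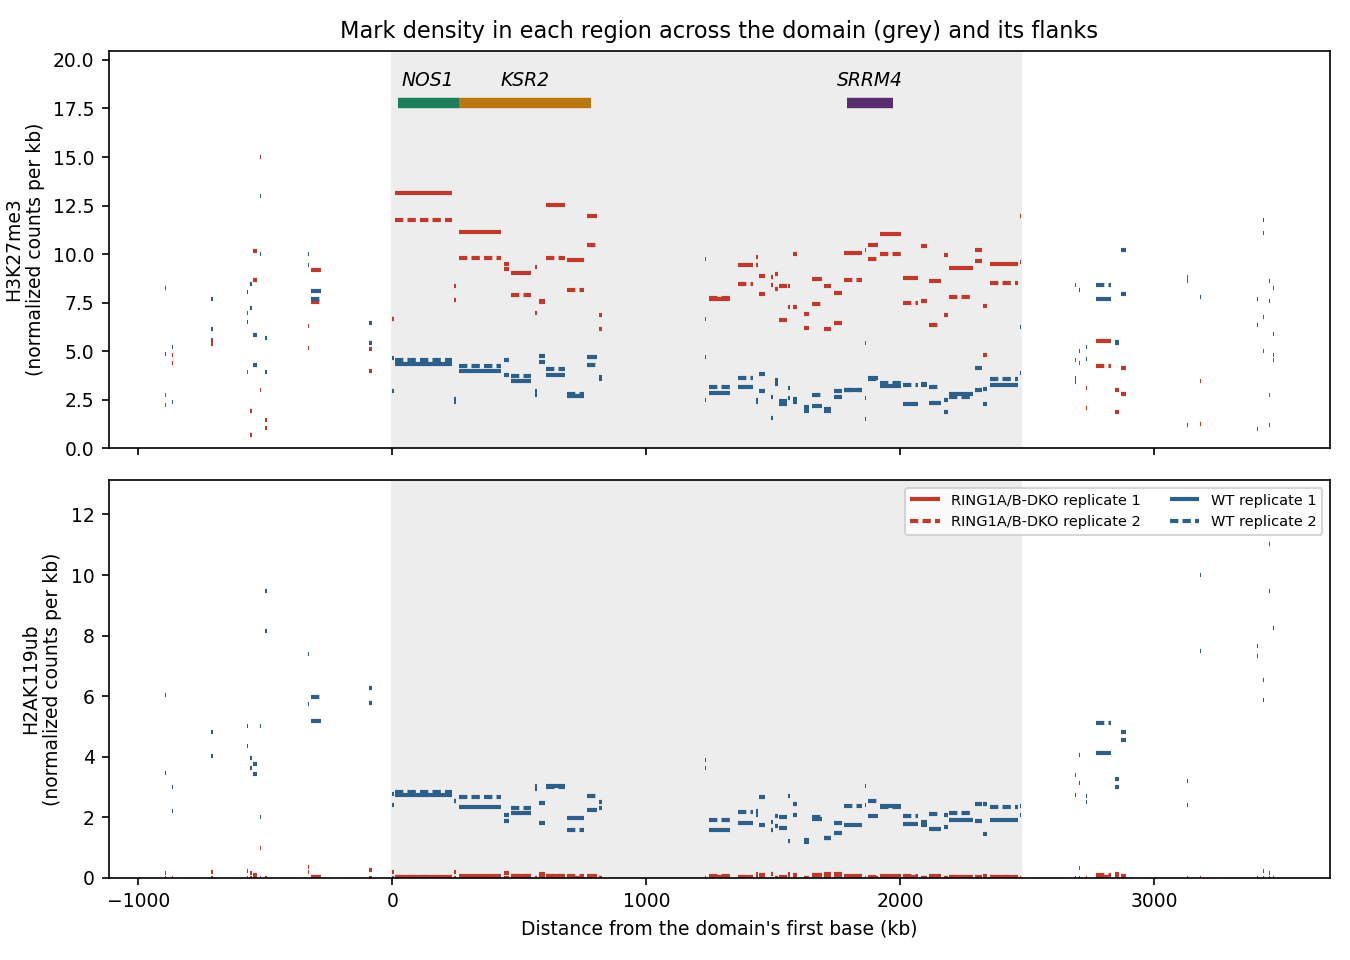
H3K27me3 (upper panel) and H2AK119ub (lower panel) in normalized counts per kb for every region of the domain (grey) and the flanks, drawn at its distance in kb from the first base of the domain, with 1 line per library (red, RING1A/B-DKO; blue, WT; solid, replicate 1; dashed, replicate 2). Coloured bars mark the approximate gene limits. In all 39 domain regions the red H3K27me3 lines lie above the blue ones, as in 18511 of the 34703 regions of the table. The domain was chosen on this contrast. The red H2AK119ub lines lie near 0.

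NOS1 carried the highest H3K27me3 density of the 3 genes in both genotypes. Its 2 regions together had 12.9 and 11.6 counts per kb in RING1A/B-DKO, against 4.26 and 4.45 in WT, a ratio of means of 2.82. Nearly all of this came from the widest region of the domain, 117639801 to 117862400, which spans 222.6 kb. It held 2932 and 2618 normalized counts in RING1A/B-DKO and 966 and 1011 in WT, a log2 fold change of 1.49 ± 0.14 (SE). The smaller NOS1 region, 117869801 to 117880000, had 78 and 85 counts in RING1A/B-DKO and 26 and 24 in WT, with a log2 fold change of 1.67 ± 0.27. Both RING1A/B-DKO libraries lay above both WT libraries in each of these regions, as in 18511 of the 34703 regions of the table.

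KSR2 had the smallest ratio of the 3 genes and the widest spread among its regions. It stood at 10.6 and 9.12 counts per kb in RING1A/B-DKO, against 3.75 and 3.90 in WT, a ratio of 2.58. Its widest region, 117889801 to 118056400, held 1856 and 1635 counts in RING1A/B-DKO and 659 and 706 in WT. Both genotypes were tight around their means there, and the log2 fold change was 1.35 ± 0.15. The region 118206201 to 118228800 had the lowest change of the whole domain, with 171 and 170 counts in RING1A/B-DKO against 100 and 107 in WT, a log2 fold change of 0.72 ± 0.19. The highest change in KSR2 was found further along in 118314801 to 118382400, with 657 and 550 counts in RING1A/B-DKO against 180 and 189 in WT, a log2 fold change of 1.70 ± 0.16. The KSR2 region with the most WT H2AK119ub per kb, 118234401 to 118309400, held 940 and 736 H3K27me3 counts in RING1A/B-DKO and 283 and 304 in WT, a ratio of means of 2.86. The 2 RING1A/B-DKO libraries lay further apart there than the WT libraries. At the start of the gene, the region 118394601 to 118434200 held 473 and 415 counts in RING1A/B-DKO and 187 and 170 in WT, a log2 fold change of 1.31 ± 0.16. That change was below the median of the members, which was 1.48.

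SRRM4 had the largest ratio of the 3 genes. Its 4 regions stood at 10.5 and 9.37 counts per kb in RING1A/B-DKO, against 3.19 and 3.24 in WT, a ratio of 3.10 with a range from 2.90 to 3.31 over library pairs. The range for KSR2 was 2.34 to 2.82 and that for NOS1 was 2.61 to 3.03. These ranges come from pairings of the same libraries, whose scaling is shared by the 3 genes. They therefore do not measure a difference between genes, which was not tested. Its widest region, 119548801 to 119632600, held 923 and 840 counts in RING1A/B-DKO and 267 and 283 in WT, a log2 fold change of 1.68 ± 0.15. The region at the start of the gene, 119407001 to 119477000, held 703 and 605 counts in RING1A/B-DKO and 208 and 210 in WT, a log2 fold change of 1.64 ± 0.16. The lowest change in SRRM4 was 1.48 ± 0.17 in 119502001 to 119541400, with 412 and 384 counts in RING1A/B-DKO and 143 and 140 in WT. The highest, 1.79 ± 0.41, came from the narrow region 119490401 to 119495000, whose 47 and 25 counts in RING1A/B-DKO and 12 and 7 in WT are few, and its error was correspondingly wide.

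H3K27me3 outside the 3 genes differed between genotypes by about as much as inside them. The stretch between KSR2 and SRRM4 had 8.42 and 7.43 counts per kb in RING1A/B-DKO, against 2.63 and 2.98 in WT, a ratio of 2.82. Beyond SRRM4 the values were 9.27 and 7.79 in RING1A/B-DKO and 2.96 and 3.10 in WT, a ratio of 2.81. Both stretches had lower mean densities than NOS1 or KSR2 in each genotype. The widest region outside the genes, 119979801 to 120091600, held 1062 and 952 counts in RING1A/B-DKO and 365 and 401 in WT, a log2 fold change of 1.39 ± 0.15. The largest change of any member, 2.01 ± 0.31, lay in the stretch between KSR2 and SRRM4, in 119118001 to 119125600. That region was singled out after its values were seen, and it held 64 and 67 counts in RING1A/B-DKO and 12 and 20 in WT.

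**Figure D2:**
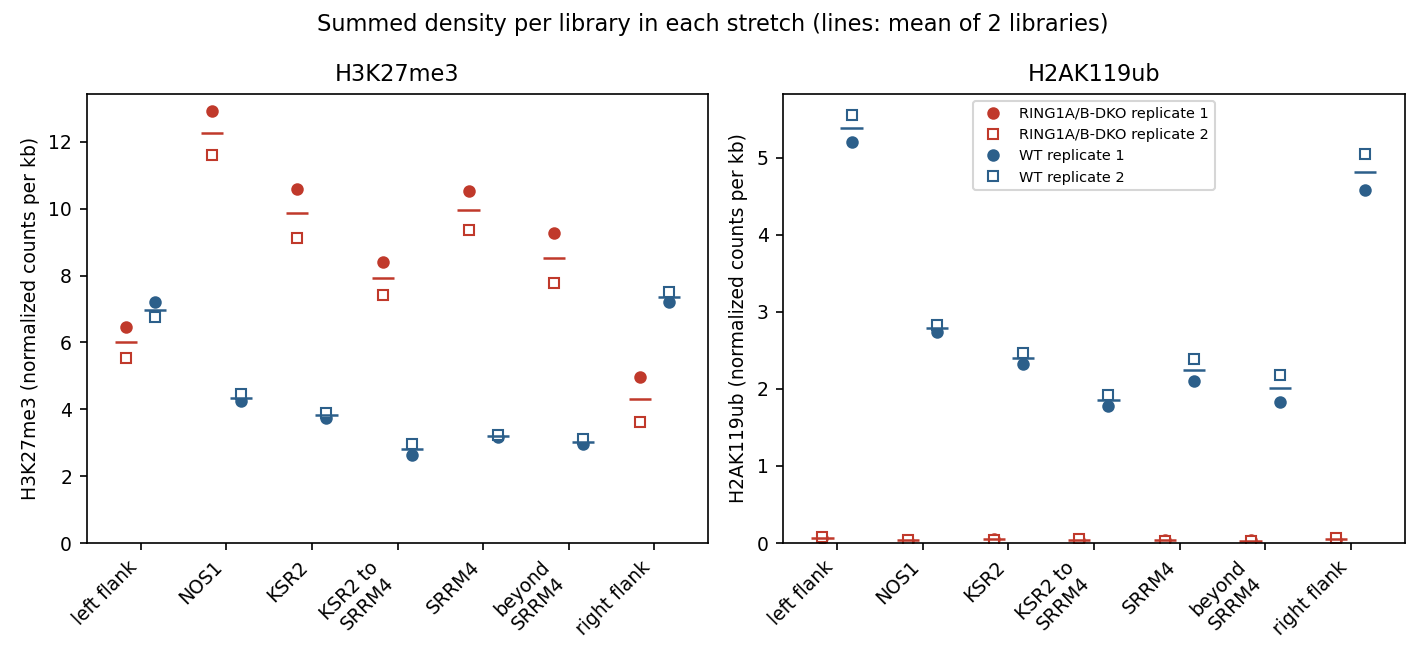
Summed density per library, in normalized counts per kb, of H3K27me3 (left) and H2AK119ub (right) in 5 stretches of the domain and in the 2 flanks, with RING1A/B-DKO in red to the left of WT in blue and a line at the mean of 2 libraries. H3K27me3 was higher in RING1A/B-DKO in each of the 5 stretches and lower in each flank, more so in the right one. WT H2AK119ub was lower in each of the 5 than in either flank.

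The distribution of H3K27me3 along the domain changed little compared with its level. NOS1 held 17.5% and 18.1% of the H3K27me3 counts of the domain in RING1A/B-DKO, against 17.5% and 17.4% in WT. KSR2 held 29.7% and 29.4% in RING1A/B-DKO and 32.0% and 31.6% in WT, and SRRM4 held 12.1% and 12.4% in RING1A/B-DKO and 11.1% and 10.7% in WT. The share of KSR2 was the lower one in both RING1A/B-DKO libraries and that of SRRM4 the higher one. Over single members, density ranged from 6.07 to 12.5 counts per kb in RING1A/B-DKO and from 1.95 to 5.07 in WT. The coefficient of variation across the 39 members was 16.4% in RING1A/B-DKO and 24.7% in WT. Spearman's rho between the RING1A/B-DKO and WT densities of the members was 0.47 (n = 39 regions of the same libraries, given as a description).

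All 39 members had a log2 fold change above 0 in H3K27me3, with a median of 1.48 and a range from 0.72 to 2.01. By limma on log2(normalized count + 1) with a Benjamini-Hochberg adjusted p under 0.05 over 32209 tested regions, all 39 were called higher, where 47.3% of all tested regions were. A change above 1 went with that call in 36 members and in 10613 of the 32209 tested regions. The interval was drawn on this contrast, so both counts of members were set by their choice and nothing is read from them. The median log2 fold change of all tested regions was 0.58 as deposited and 0.06 when columns were scaled to equal totals. Relative to this overall shift, the median of the members was higher by 0.90 under either scaling. A factor per library shifts all regions almost alike, so the 2 scalings had to give nearly the same difference. The difference itself comes from the contrast on which the members were chosen. The median log2 fold change of the members was 1.43 without WT replicate 1 and 1.52 without WT replicate 2, against 1.48. These 2 fits keep 1 WT library and called no region of the whole table, so their calls cannot single out the members. Without RING1A/B-DKO replicate 1, 24 members were called, where 13.9% of all tested regions were. Without RING1A/B-DKO replicate 2, 27 members were called, where 25.3% of all tested regions were. With columns scaled to equal totals, 35 members were called higher, where 29.8% of all tested regions were. The members not called then included 117628401 to 117633800 and 118206201 to 118228800, with log2 fold changes of 0.31 and 0.19. In the authors' deposited table, 32 members had a p-value under 0.05 and a log2 fold change above 1, as did 21.1% of all regions of that table.

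**Figure D3:**
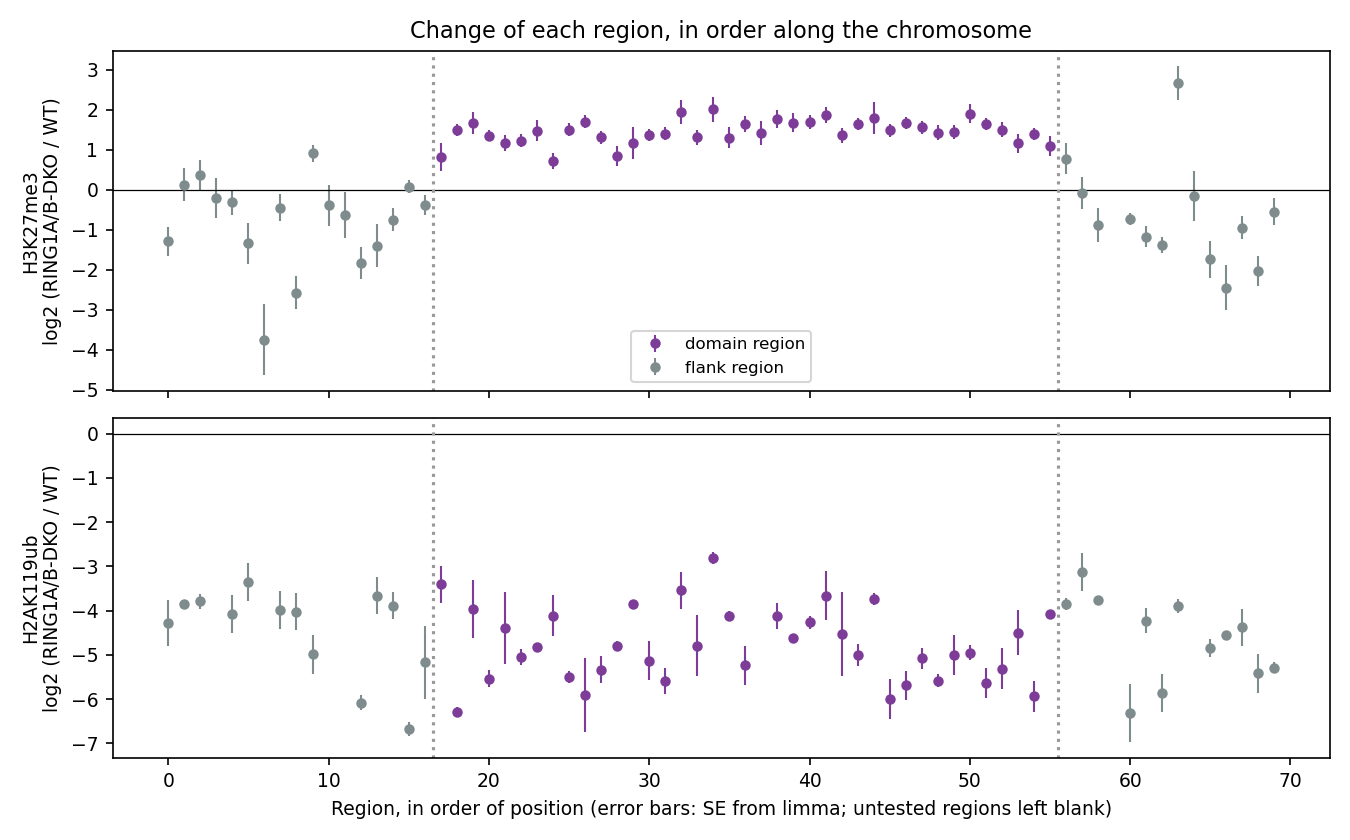
Log2 fold change (RING1A/B-DKO over WT) of H3K27me3 (upper panel) and H2AK119ub (lower panel) for each region in order of position, with the SE from limma as bars, the domain in purple between the dotted lines, the flanks in grey, and untested regions left blank. The 39 domain regions sit between 0.72 and 2.01 for H3K27me3 while the flank regions scatter from -3.75 to 2.67; for H2AK119ub all tested regions lie below 0.

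At each edge of the interval, the region just outside had a smaller change than the member just inside. The interval was drawn around regions with a gain, so this step was set by that choice and nothing is read from it. Just inside on the left, 117628401 to 117633800 held 36 and 36 H3K27me3 counts in RING1A/B-DKO and 25 and 16 in WT, a log2 fold change of 0.82. Just outside, 117535001 to 117546800 held 60 and 47 in RING1A/B-DKO and 64 and 76 in WT, a log2 fold change of -0.39. On the right, the last member, 120097601 to 120104800, held 69 and 86 in RING1A/B-DKO and 45 and 28 in WT, a log2 fold change of 1.10. The next region, 120316801 to 120321200, held 37 and 20 in RING1A/B-DKO and 15 and 16 in WT. Its log2 fold change of 0.78 ± 0.38 (SE) was above the lowest of a member, 0.72. That region was not called by limma (adjusted p = 0.0639), and its log2 fold change was 0.27 with columns scaled to equal totals. Its direction was that of the members, while the right flank as a whole went the other way.

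In the flanks H3K27me3 was lower in RING1A/B-DKO more often than higher. Of 30 tested flank regions, 2 were called higher and 14 lower by the same limma fit, where 47.3% of all tested regions were called higher and 22.8% lower, and the median log2 fold change was -0.68. Without WT replicate 1 or WT replicate 2, 0 of the 30 were called by limma, with 7 and 8 at an unadjusted p under 0.05, and no region of the whole table was called. Without RING1A/B-DKO replicate 1 there were 1 higher and 8 lower calls in the flanks, where 13.9% of all tested regions were called higher and 13.2% lower. Without RING1A/B-DKO replicate 2 there were 2 higher and 8 lower, where 25.3% of all tested regions were called higher and 12.7% lower. With columns scaled to equal totals, 2 flank regions were called higher and 20 lower, where the table as a whole turned to 29.8% higher and 33.9% lower. The left flank stood at 6.47 and 5.54 counts per kb in RING1A/B-DKO and 7.20 and 6.76 in WT. The right flank stood at 4.97 and 3.62 in RING1A/B-DKO and 7.20 and 7.51 in WT. Both flanks together had a ratio of 0.71, against 2.77 in the domain. The domain therefore carried more H3K27me3 per kb than its flanks in RING1A/B-DKO, 1.78 and 1.96 times, and less in WT, 0.46 and 0.49 times. This difference of 1.98 on the log2 scale has no test, since the interval was chosen on it.

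The contrast with the surroundings depended on how far they reached. Between 1 and 2 Mb to the left lay another run of 19 regions over 520.0 kb, of which 18 were called higher in H3K27me3 and 1 lower. It stood at 9.48 and 7.96 counts per kb in RING1A/B-DKO and 3.73 and 3.68 in WT, a ratio of 2.35. Between 1 and 2 Mb to the right, 11 regions had a ratio of 1.11. With flanks of 2 Mb, the log2 difference between domain and flanks was 0.88 in place of 1.98. Over the rest of chromosome 12, 44.9% of tested regions were called higher and 24.0% lower.

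H2AK119ub was almost absent from the domain in RING1A/B-DKO, as it was from the whole table. Summed over the members it stood at 0.0423 and 0.0370 normalized counts per kb in RING1A/B-DKO, against 2.12 and 2.32 in WT. The RING1A/B-DKO level was 1.79% of the WT level, with 1.59% to 2.00% over library pairs, and the flanks stood at 1.16%. These RING1A/B-DKO sums were only 72 and 63 normalized counts over 39 regions, against 3605 and 3955 in WT. The exact two-sided permutation test of the density gave p = 0.333, the smallest that 2 against 2 libraries allow. In each RING1A/B-DKO library 15 members were listed at 0, and 9 were at 0 in both. Over the whole table, 24902 and 23507 of the 34703 regions were at 0 in RING1A/B-DKO replicates 1 and 2. Members were thus at 0 less often than regions of the table, which are mostly narrower.

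By limma, 38 of 38 tested members were called lower in H2AK119ub, where 100% of tested regions were to 3 significant digits, and the largest adjusted p of a member was 0.0164. The median log2 fold change was -4.89, against -4.74 over all tested regions. The standing of the members relative to the table depended on the setting. With no filter the median was -4.83, against -4.13 over all regions, while with columns scaled to equal totals it was 0.12, against -1.14. By summed counts, the RING1A/B-DKO level was 1.79% of WT in the domain and 1.11% over all regions. Without WT replicate 1, 15 of the 38 were called, where 52.3% of all tested regions were. Without WT replicate 2, 15 were called, where 52.2% were. The remaining member, 119187401 to 119194800, had too few counts to be tested, with 0 and 1 in RING1A/B-DKO and 20 and 9 in WT. In the large NOS1 region, H2AK119ub was 7 and 7 in RING1A/B-DKO and 612 and 632 in WT, a log2 fold change of -6.28 ± 0.12 (limma adjusted p = 0.000207). In the widest KSR2 region it was 9 and 7 in RING1A/B-DKO and 389 and 445 in WT, and in the widest SRRM4 region 4 and 2 in RING1A/B-DKO and 200 and 197 in WT. The groups did not overlap in any of these regions. Over the whole table, both RING1A/B-DKO libraries lay below both WT libraries in 34452 of the 34703 regions.

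These losses are on the scale of the authors' values, in which the RING1A/B-DKO libraries summed to 17159 and 20938 and the WT libraries to 1575661 and 1866278. When the 4 columns were instead scaled to equal totals, the domain sum was higher in RING1A/B-DKO by 0.69 on the log2 scale, so the direction rests on the authors' scaling. Of the 38 tested members, 9 were then called lower and 2 higher by limma, where 42.9% of all tested regions were called lower and 1.82% higher. As a share of its library, the domain held 0.420% and 0.301% of the H2AK119ub counts in RING1A/B-DKO and 0.229% and 0.212% in WT (exact two-sided permutation p = 0.333). The ratio of domain to flanks was 0.866 and 0.535 in RING1A/B-DKO and 0.435 and 0.440 in WT (p = 0.333 by the same exact test). The RING1A/B-DKO values of that ratio rest on flank sums of 12 and 17 counts.

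In WT, the members were poor in both marks for regions of this table. WT H2AK119ub was below the median density of the table in 38 of the 39 members, against 7 of the 31 flank regions. The rule did not use this mark, but its WT density followed that of WT H3K27me3 over the whole table (Spearman's rho 0.67). WT H3K27me3 enters the change on which the interval was drawn, so low WT H2AK119ub in the members was not independent of their choice. The median percentile of a member in that ranking was 16.0, against 77.6 for a flank region. In both WT libraries the domain had less H2AK119ub per kb than the flanks, 2.12 against 4.87 and 2.32 against 5.28. Among the genes, WT H2AK119ub was 2.78 ± 0.06 counts per kb in NOS1, 2.40 ± 0.10 in KSR2 and 2.25 ± 0.20 in SRRM4 (SD, n = 2). KSR2 was above SRRM4 in both WT libraries, 2.33 against 2.11 and 2.47 against 2.39. Between KSR2 and SRRM4 it was 1.85 ± 0.11, and beyond SRRM4 2.01 ± 0.25. For H3K27me3, the median percentile of a member was 80.1 in RING1A/B-DKO and 19.5 in WT, and that of a flank region 29.9 in RING1A/B-DKO and 82.6 in WT.

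Regions with less WT H2AK119ub tended to have larger H3K27me3 changes over the table as a whole, with Spearman's rho of -0.61 over 32209 regions and -0.63 over the 30 tested flank regions. Within the domain rho was -0.24 (n = 39). These are correlations across regions of the same libraries, which share depth and cultures, and they are given as descriptions. The H3K27me3 change has WT H3K27me3 as its denominator, and WT H2AK119ub followed WT H3K27me3 over the table (rho 0.67). The change and WT H2AK119ub are therefore not independent quantities. The width of a member bore little relation to its change (rho 0.06).

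**Figure D4:**
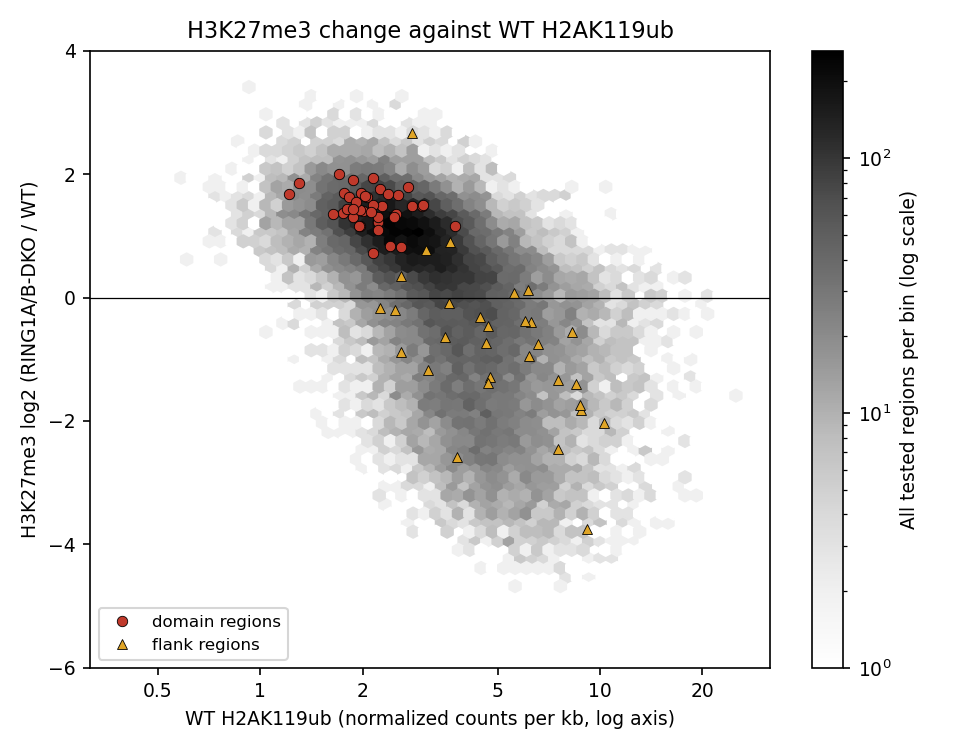
H3K27me3 log2 fold change (RING1A/B-DKO over WT) against WT H2AK119ub in normalized counts per kb (log axis) for the domain regions (red circles), the flank regions (gold triangles) and all tested regions (grey bins, darker where more regions fall, on a log scale). The domain regions gather at low WT H2AK119ub and positive change, while most flank regions lie further right and below 0.

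Other stretches of the genome had profiles like that of the domain. Each chromosome was laid out in tiles of 2490 kb, and the 842 tiles with at least 20 regions and a value above 0 in every library were compared with the domain by Euclidean distance over the log2 densities of the 8 libraries. The nearest was on chromosome X from 149400001 to 151890000, at a distance of 0.44 where the median tile was at 1.60, with H3K27me3 at 8.59 counts per kb in RING1A/B-DKO and 3.50 in WT. It was followed by chromosome 6 from 9960001 to 12450000, with 7.93 in RING1A/B-DKO and 3.35 in WT. The third was chromosome 20 from 49800001 to 52290000, with 9.36 in RING1A/B-DKO and 3.39 in WT. Their H3K27me3 ratios were 2.45, 2.37 and 2.76, against a median of 1.48 over tiles, and 11 tiles exceeded the ratio of the domain. A few tiles thus passed the gain of the domain. The tiles were laid without regard to gains, while the interval was drawn around regions with a gain. The count of 11 therefore does not show how rare a run of this size is.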

How the data were processed

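ChIP-seq of H2AK119ub and H3K27me3 was analysed in 8 HAP1 libraries. The values used were the authors' deposited normalized counts, whole-number scores that they had normalized before deposit, per the file headers. The method and any spike-in scaling are not given in the sources used here, nor is the depth in reads, so no counting intervals were computed. Bowtie2, SAMtools, Picard, bedtools, deepTools and the build hg19 appear in the submitters' processing notes. The authors' deposited log2 columns equal log2(normalized count + 0.5), and their deposited fold changes (log2) and p-values were used for counts of members only. Coordinates were made 1-based.

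Values per kb are sums of normalized counts over the covered length. limma 3.58.1 (R 4.3.3, trend) was fitted per mark to log2(normalized count + 1) over the whole table, on regions with at least 10 in at least 2 of 4 libraries and a sum of at least 15. p-values were adjusted by Benjamini-Hochberg at 0.05. Fold changes on this scale understate those of low regions. Raw counts were not available for a count model, and the code was tested on simulated data. Named regions were, per gene, the widest, the one with the most WT H2AK119ub per kb, and those with the highest and lowest H3K27me3 change, then the widest outside the genes, both ends and their neighbours, and regions holding a gene start. The genes, interval and rules were chosen with earlier results of these data known. Alternatives were other pseudocounts, no filter, no trend, 2 rescalings, wider flanks, a replicate block, and each library left out.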

Additional observations from a re-analysis of the deposited data

How the results depend on the processing

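For the values and counts that describe the domain or the flanks as a whole, 47 alternatives kept the direction, with counts within 1.5 times of the original though not always equal to it, 11 gave counts smaller by more than that, 3 moved and 2 reversed. For single regions, 234 kept direction and call, 59 lost a call, 3 gained one and 12 reversed. Rescaling to equal column totals or to median-of-ratios factors moved H2AK119ub most: 9 and 10 members were called lower and 2 higher in each case, and the log2 change of the domain sum was 0.69 and 0.076 in place of -5.81. With column totals the H2AK119ub log2 change was 0.46 in 117628401 to 117633800, 0.026 in 117639801 to 117862400, 0.19 in 117869801 to 117880000, 0.77 in 117889801 to 118056400, 1.55 in 118206201 to 118228800, 0.66 in 118234401 to 118309400, 0.36 in 119548801 to 119632600 and 0.11 in 119979801 to 120091600. With median-of-ratios factors it was 0.10 in the region at 117628401, 0.17 in that at 117889801, 1.00 in that at 118206201 and 0.063 in that at 118234401. By construction these factors remove a difference common to all regions. The log2 change of the H3K27me3 domain sum was 0.94 and 0.96 under the 2 rescalings, against 1.47. With flanks of 2 Mb the H3K27me3 difference from the flanks was 0.88, against 1.98.

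Leaving out 1 library gave 15 to 38 members called lower in H2AK119ub, 0 to 27 called higher in H3K27me3, and 0 to 10 flank regions called in H3K27me3. These fits have fewer libraries, and the lone library of a group was assumed to vary like the other group. The replicate numbers did not pair libraries (correlation of same-numbered deviations -0.000149 for H2AK119ub and 0.0112 for H3K27me3), and with a replicate block 38, 39 and 16 regions were called, the same counts as without it. With 2 libraries a group and no read depth, small differences between genes or stretches could not be resolved.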

Other observations

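Within the flanks, 2 regions stood out in H3K27me3 and were singled out after their values were seen. The region 120756801 to 120761800 on the right held 43 and 44 normalized counts in RING1A/B-DKO and 6 and 6 in WT, a log2 fold change of 2.67 that was above that of every member of the domain. The region 116976601 to 116977800 on the left was listed at 0 in both RING1A/B-DKO libraries and at 12 and 13 in WT. Among the members, the region with the least WT H2AK119ub per kb, 119249801 to 119269200, was listed at 0 for that mark in both RING1A/B-DKO libraries and at 24 and 23 in WT, and its H3K27me3 was 134 and 120 in RING1A/B-DKO and 37 and 41 in WT. The region with the most WT H2AK119ub per kb, 118861401 to 118865000 at the right edge of the long gap, held 0 and 0 in RING1A/B-DKO and 13 and 14 in WT, with H3K27me3 at 35 and 24 in RING1A/B-DKO and 9 and 17 in WT.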
